A study of Mus musculus with 18 samples.

Results

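The cardiac thin filament is followed here through 10 genes, 4 troponins (Tnnt2, Tnni3, Tnnc1 and Tnni1), 4 tropomyosins (Tpm1, Tpm2, Tpm3 and Tpm4) and 2 sarcomeric actins (Acta1 and Actc1). They were taken by name from the deposited tables, and all 10 were found among the 23457 genes of the count table and the 23396 genes of the FPKM table. The hearts came from 18 male C57BL/6 mice aged 17 weeks, 6 in each of 3 groups. Every mouse had been injected through the tail vein at 8 weeks of age with a recombinant adeno-associated virus of serotype 6 (rAAV6), 9 weeks before the heart was taken. The vector carried FLAG-tagged phospholipase C beta 1b (PLCb1b), the tagged splice variant PLCb1a, or a promoter without a protein product (rAAV6-blank), so that the control hearts had received virus too. PLCb1b is the variant that the study connects with weaker contraction, and the comparison asks whether RNA of the contractile apparatus changed with it. The labels give both ventricles as the tissue, whereas the study's methods give the left ventricle.

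Actin subunits form the backbone of the thin filament, and tropomyosin coils along it and covers the sites to which myosin binds. Troponin C binds calcium at each beat, troponin I then releases its hold on actin, and troponin T ties both to tropomyosin, so that tropomyosin moves aside and the muscle contracts. Several of these genes have a counterpart used in the foetal heart or in skeletal muscle, among them Tnni1 and Acta1, and the balance within such pairs is widely followed in studies of stressed hearts.

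The delivered gene checked the labels. Normalised counts of Plcb1 (CPM, counts scaled to library size with TMM factors) were 6.26 ± 0.541 (SD, n = 6) in blank hearts, 22.2 ± 3.87 in PLCb1a hearts and 46.9 ± 17.5 in PLCb1b hearts. No PLC heart overlapped with a blank heart. The counts do not separate the splice variants. Total counts ran from 13246339 to 24155465 per heart, of which 67.1 to 71.9% fell on mitochondrial genes. The counts on nuclear genes were therefore 3908354 to 7591558, and the 10 thin filament genes took 2.63 to 2.99% of them. No heart had the same values as another. Markers of heart muscle cells were abundant in all hearts (8 genes, 49526 to 54936 CPM summed). The 9 markers of fast skeletal muscle summed to 22.3 CPM in PLCb1a heart 21, and to between 0.523 and 1.41 CPM in the other 17 hearts. In bulk tissue, fewer cells of a type cannot be told apart from less RNA per cell.

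No thin filament gene was called in any comparison. Of the 10 genes, 9 had enough counts to be tested, and edgeR's quasi-likelihood test with Benjamini-Hochberg adjustment over 12281 genes called 0 of the 9 at a false discovery rate (FDR) below 0.1 between PLCb1b and blank hearts, where 12 of all genes (0.0977%) were called. Between PLCb1a and blank hearts 0 of the 9 were called, against 17 of all genes (0.138%). Between PLCb1b and PLCb1a hearts 0 of the 9 and 0 of all genes (0%) were called. The lowest edgeR adjusted p of all genes there was 0.801, so that the delivered gene Plcb1 was not called either. Yet 5 PLCb1b hearts lay above every PLCb1a heart in CPM of Plcb1, with group means of 46.9 and 22.2. The absence of calls between these groups therefore does not show that they were alike. In this last comparison 543 of all genes (4.42%) and none of the 9 had an unadjusted p under 0.05, DESeq2 called 1 gene, edgeR's exact test called 2 and limma on log2(FPKM + 0.1) called 1. With both PLC groups set against blank hearts, 0 of the 9 and 40 of all genes (0.326%) were called. The comparisons with blank hearts share those 6 hearts. At an unadjusted p under 0.05, 1 of the 9 genes passed in each comparison with blank hearts, the same gene each time (Actc1), against 7.41% of all genes for PLCb1b, 8.58% for PLCb1a and 9.25% for both groups together. No thin filament gene separated any pair of groups without overlap in CPM, as 0.48%, 0.594%, 0.179% and 0.0651% of all genes did for PLCb1b against blank, PLCb1a against blank, PLCb1b against PLCb1a and both PLC groups against blank.

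**Figure D1:**
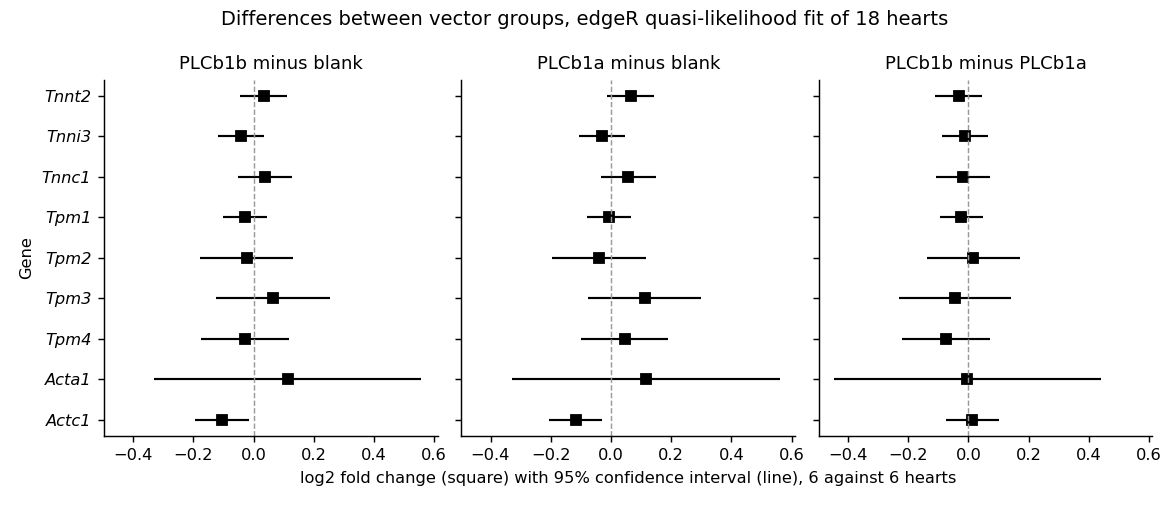
Log2 fold change (squares) and 95% confidence interval (lines) of the 9 tested thin filament genes in 3 comparisons, from the quasi-likelihood fit of 18 hearts. The intervals of Actc1 against blank hearts lie below 0 without adjustment for the number of genes tested, and the widest intervals are those of Acta1.

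The estimates were small and, for the abundant genes, narrow. Over the 9 genes the log2 fold change between PLCb1b and blank hearts ran from -0.10 (Actc1) to 0.11 (Acta1) with a median of -0.023, where the median of all genes was -0.00089. For PLCb1a against blank hearts it ran from -0.12 (Actc1) to 0.12 (Acta1) with a median of 0.045, against -0.0018 over all genes. For PLCb1b against PLCb1a hearts it ran from -0.075 (Tpm4) to 0.017 (Tpm2) with a median of -0.019.

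The levels of the 10 genes spanned more than 4 orders of magnitude when set side by side as FPKM (fragments scaled to transcript length and to sequencing depth), which allows for gene length. Tpm1 (mean of 18 hearts 2788 FPKM) and Actc1 (2752 FPKM) were highest, at ranks 22 and 23 of all genes. They could not be ordered, since Tpm1 was above Actc1 in only 11 of 18 hearts. Tnni3 followed with 1822 FPKM and Tnnt2 with 1737 FPKM, in that order in 16 of 18 hearts, and Tnnc1 with 966 FPKM. Acta1 (61.8 FPKM), Tpm4 (22.9 FPKM), Tpm3 (7.47 FPKM) and Tpm2 (3.03 FPKM) formed a lower tier, and Tnni1 (0.0755 FPKM) was close to 0. Every other pair of neighbours in this order stood in the same order in 18 of 18 hearts.

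**Figure D2:**
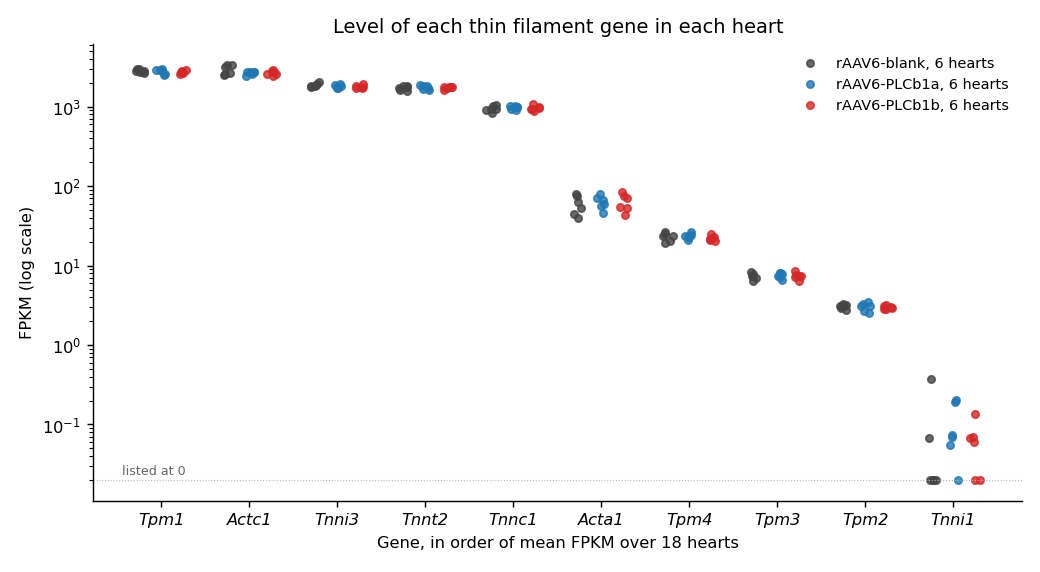
FPKM of each of the 10 genes in each heart, on a log scale, with points coloured by vector group and hearts listed at 0 drawn on the dotted line. The 3 groups lie on top of one another for each gene, and the genes fall into an upper tier of 5, a lower tier of 4, and Tnni1.

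The order among the highest genes depended on the table. When counts were divided by the summed exon length of each gene, Actc1 came first, followed by Tnni3, Tnnt2 and Tpm1 in that order. The ratio of FPKM to counts per exon length was 3.08 times the median gene's ratio for Tpm1 and 1.77 times for Tpm3, whereas it was 1.10 to 1.25 times for Actc1, Tnnt2, Acta1, Tnni3 and Tnnc1. It was 0.67 times for Tpm2, 0.92 times for Tpm4 and 0.95 times for Tnni1. Tpm1 has 10 annotated transcripts and 3279 bases of exon in the authors' annotation. The order of Tpm2 and Tpm3 was also exchanged, with 12.4 for Tpm2 and 11.5 for Tpm3 on the scale of CPM of nuclear counts per kilobase of exon.

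The calcium sensor itself, troponin C of slow and cardiac muscle (Tnnc1, chr14:31208312-31211711, mm10, plus strand), had 413 to 477 CPM (median 459) in blank hearts. It had 440 to 497 CPM (median 467) in PLCb1a hearts and 436 to 529 CPM (median 448) in PLCb1b hearts. PLCb1b heart 17 was above all other hearts, and the 5 other PLCb1b hearts lay between 436 and 458 CPM, inside the range of the blank hearts. The log2 fold change was 0.039 (SE 0.044, edgeR adjusted p = 0.885) for PLCb1b and 0.058 (SE 0.044, edgeR adjusted p = 0.757) for PLCb1a. The 95% interval for PLCb1b ran from -3.46% to 9.36% relative to the blank level.

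Cardiac troponin I (Tnni3, chr7:4518308-4522443, minus strand), the inhibitory subunit, is the form of the adult heart and carries an amino-terminal extension that protein kinase A phosphorylates. Its normalised counts were 1022 to 1145 CPM (median 1094) in blank hearts, 978 to 1130 CPM (median 1090) in PLCb1a hearts and 1011 to 1119 CPM (median 1064) in PLCb1b hearts. The 3 ranges overlapped over most of their length. The log2 fold change was -0.043 (SE 0.038, edgeR adjusted p = 0.848) for PLCb1b, with an interval from -7.91% to 2.36%, and -0.030 (SE 0.038, edgeR adjusted p = 0.871) for PLCb1a. In FPKM, 4 of the 6 PLCb1b hearts were below every blank heart, with 1731 to 1914 FPKM (median 1754) against 1772 to 2029 FPKM (median 1839). With limma on log2(FPKM + 0.1) this difference was not called either. In that fit the median log2 fold change of all genes was -0.024 for PLCb1b, and 176 of the 640 genes with an unadjusted p under 0.05 were higher in PLCb1b.

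Slow skeletal troponin I (Tnni1, chr1:135799421-135810989, plus strand) is the troponin I of the foetal heart, which Tnni3 replaces around birth. It had 22 counts in all 18 hearts together and at most 4 in any heart, too few to be tested. The FPKM table gave 0 to 0.369 FPKM. Within a heart Tnni1 reached at most 0.0202% of the FPKM of Tnni3, with a median of 0.00348%. Blank heart 32 had the 4 counts (0.306 CPM), while PLCb1a hearts had 0 to 3 counts and PLCb1b hearts 1 to 2.

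Cardiac troponin T (Tnnt2, chr1:135836334-135852268, plus strand) anchors the troponin complex to tropomyosin and is spliced into several forms, 9 in the authors' annotation, which gene-level values do not separate. Normalised counts were 1450 to 1617 CPM (median 1532.5) in blank hearts, 1455 to 1712 CPM (median 1599) in PLCb1a hearts and 1516 to 1660 CPM (median 1551) in PLCb1b hearts. In both PLC groups 2 hearts exceeded every blank heart and the others lay within the blank range. The log2 fold change was 0.034 (SE 0.039, edgeR adjusted p = 0.886) for PLCb1b and 0.066 (SE 0.039, edgeR adjusted p = 0.664) for PLCb1a, with intervals of -3.05% to 8.11% and -0.874% to 10.5%. As a share of the FPKM of the 4 troponins, Tnni3 took 38.6 to 42.8%, Tnnt2 37.3 to 39.8% and Tnnc1 19.8 to 23.7% over the 18 hearts.

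Tpm1 (chr9:67022593-67049213, minus strand), which encodes the alpha-tropomyosin of heart muscle, made up nearly all tropomyosin RNA. It took 98.6 to 99.0% of the FPKM of the 4 tropomyosins in each heart, a share that depends on the table. As CPM of nuclear counts per kilobase of exon, the means were 2479 for Tpm1, 68.1 for Tpm4, 12.4 for Tpm2 and 11.5 for Tpm3. The normalised counts of Tpm1 were 2430 to 2573 CPM (median 2518) in blank hearts, 2240 to 2598 CPM (median 2557) in PLCb1a hearts and 2352 to 2558 CPM (median 2466) in PLCb1b hearts. PLCb1a heart 7 stood below all others at 2240 CPM, and the other 5 PLCb1a hearts had 2512 to 2598 CPM. The same heart was also the lowest of the 18 for Tnni3, at 978 CPM. In FPKM it was not the lowest for either gene. It had 2593 FPKM of Tpm1 and 1720 FPKM of Tnni3, against 2541 and 1699 FPKM in PLCb1a heart 14. The log2 fold change of Tpm1 was -0.029 (SE 0.036, edgeR adjusted p = 0.899) for PLCb1b and -0.0060 (SE 0.036, edgeR adjusted p = 0.979) for PLCb1a. The intervals ran from -6.80% to 3.09% and from -5.31% to 4.74%.

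The other tropomyosins were minor species. Tpm4 (chr8:72135292-72153129, plus strand), a form of non-muscle cells, had 36.9 to 49.2 CPM (median 44.5) in blank hearts, 41.1 to 49.3 CPM (median 43.8) in PLCb1a hearts and 38.4 to 49.0 CPM (median 42.3) in PLCb1b hearts. Tpm3 (chr3:90072651-90100902, plus strand), used in slow skeletal muscle and in non-muscle cells, had 7.85 to 12.2 CPM over all hearts, from 105 to 265 counts. Tpm2 (chr4:43514712-43523388, minus strand), the beta-tropomyosin of skeletal and smooth muscle, had 7.04 to 9.56 CPM, from 95 to 194 counts. The largest estimate among these 3 genes was that of Tpm3 for PLCb1a, at 0.11 (SE 0.093, edgeR adjusted p = 0.780), with an interval from -5.19% to 23.1%. It was 0.050 without PLCb1a heart 13, 0.17 without PLCb1a heart 21 and 0.027 with limma on log2(FPKM + 1). For PLCb1b the estimates were 0.066 (Tpm3), -0.030 (Tpm4) and -0.023 (Tpm2), and their intervals reached from -11.6% (Tpm2) to 19.3% (Tpm3). Markers of smooth muscle, where Tpm2 and Tpm4 are also used, summed to 107 to 129 CPM in blank hearts, 104 to 137 CPM in PLCb1a hearts and 114 to 129 CPM in PLCb1b hearts, and their part in these values was not tested.

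Cardiac actin (Actc1, chr2:114047289-114052811, minus strand) was the sarcomeric actin of these hearts, with 97.0 to 98.6% of the FPKM of Actc1 and Acta1 together. Skeletal actin (Acta1, chr8:123891758-123894775, minus strand) made up the rest. The adult mouse heart keeps a little Acta1 RNA, and the gene is known to rise in overloaded hearts. The longest open reading frames of the pair, taken from the GENCODE transcripts, both had 1134 bases and were 86.2% identical, with 157 differing bases. In spite of this likeness no stretch of 76 bases, the read length, was shared between them. Of all 76-base windows of their transcripts, 0% for Actc1 and 0.329% for Acta1 also occurred in a transcript of another gene, so that reads could be assigned to either actin. The shared windows were 33.1% for Tpm3, found in Tpm3-rs7, 9.35% for Tpm4, found in Gm7809, and 0.82% for Tnni3. Neither Tpm3-rs7 nor Gm7809 has an entry in the count table, and the counts of Tpm3 and Tpm4 are uncertain to that extent. For the other members no window was shared. The alpha-globin gene Hba-a1, with 62.0% of its windows shared with its copy, had 0 counts in every heart, although the FPKM table gave it a mean of 175 FPKM. The reason for this difference was not tested.

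The regions before the start of the pair are shown because both actin genes are classic targets of serum response factor (SRF), which binds CArG boxes. The 250 bases before the RefSeq start are given 5′ to 3′ on the strand of the gene (GRCm38.p6, the assembly also named mm10), at chr8:123894776-123895025 for Acta1 and chr2:114052876-114053125 for Actc1, both from the minus strand. Capitals mark exact matches to the CArG box.
Acta1: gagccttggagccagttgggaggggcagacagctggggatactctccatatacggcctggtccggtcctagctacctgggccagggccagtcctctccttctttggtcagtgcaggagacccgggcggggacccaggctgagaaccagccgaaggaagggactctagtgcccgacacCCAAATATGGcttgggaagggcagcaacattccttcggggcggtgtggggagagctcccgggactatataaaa
Actc1: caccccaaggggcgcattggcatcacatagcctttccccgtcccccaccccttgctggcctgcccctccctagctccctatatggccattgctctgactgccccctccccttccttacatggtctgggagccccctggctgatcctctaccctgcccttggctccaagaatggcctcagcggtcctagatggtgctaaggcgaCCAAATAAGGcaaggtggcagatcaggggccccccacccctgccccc
An exact match spans 10 bases, CC, then only A or T, then GG, and looser forms of the box were not counted. Each region held a single exact match, CCAAATATGG beginning 73 bases before the start in Acta1 and CCAAATAAGG beginning 47 bases before it in Actc1. The RefSeq start of Acta1 is that of the authors' annotation, and that of Actc1 lies 64 bases upstream of it. Among the 13 RefSeq start regions of the 10 genes, these were the only 2 with an exact match, which 1.47% of 32851 mouse start regions of this length contained. The MCAT motif bound by TEAD factors (CATTCC, searched on both strands, overlapping no CArG box here) was found in regions of Tnnt2, Tnnc1, Tpm1 and Acta1, and in 12.6% of all regions. No binding was measured.

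Actc1 had 2707 to 3385 CPM (median 3031) in blank hearts, 2741 to 2971 CPM (median 2803.5) in PLCb1a hearts and 2696 to 2982 CPM (median 2860) in PLCb1b hearts. Blank hearts 33, 34 and 36 had 3190, 3354 and 3385 CPM, above all 12 PLC hearts, whereas blank hearts 26, 30 and 32 had 2707, 2859 and 2871 CPM, within the range of the PLC hearts. The log2 fold change against blank was -0.10 (SE 0.044, unadjusted p = 0.0236, edgeR adjusted p = 0.600) for PLCb1b. It was -0.12 (SE 0.044, unadjusted p = 0.0114, edgeR adjusted p = 0.399) for PLCb1a. For both groups against blank it was -0.11 (SE 0.038, unadjusted p = 0.00606, edgeR adjusted p = 0.305), with an interval from -12.2% to -2.32%. Lower values with an unadjusted p under 0.05 were found for 3.47% of all genes for PLCb1b, 4.16% for PLCb1a and 4.63% for both. Between the PLC groups the log2 fold change of Actc1 was 0.013 (SE 0.044, edgeR adjusted p = 0.99994), with an interval from -5.13% to 7.39%.

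The 3 blank hearts with the most Actc1 were also the deepest of their group. They had 6216493, 6593314 and 6912772 counts on nuclear genes, against 3981040 to 5399411 in the other 3. The mitochondrial share of their counts was 67.8 to 68.9%, against 69.4 to 70.3%. PLCb1a heart 7 and PLCb1b heart 4, with 7591558 and 6943832 nuclear counts, had 2770 and 2849 CPM of Actc1. PLCb1b heart 8 and PLCb1a heart 9, with 6085848 and 6060938 nuclear counts, had 2982 and 2741 CPM. With the log2 nuclear depth as a covariate, an alternative chosen after seeing the data, the log2 fold change of Actc1 was -0.11 for PLCb1b and -0.12 for PLCb1a (edgeR adjusted p = 0.468 and 0.308). Without mitochondrial genes it was -0.10 and -0.12. Leaving out blank heart 36 gave -0.073 and -0.087 (edgeR unadjusted p = 0.103 and 0.0552). Leaving out blank heart 26 gave -0.14 and -0.15 (edgeR unadjusted p = 0.0026 and 0.0011, edgeR adjusted p = 0.324 and 0.255). No heart decided the call, but whether the unadjusted p fell under 0.05 did depend on single hearts. With limma on log2(FPKM + 0.1) the limma unadjusted p was 0.130 for PLCb1b and 0.0868 for PLCb1a.

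**Figure D3:**
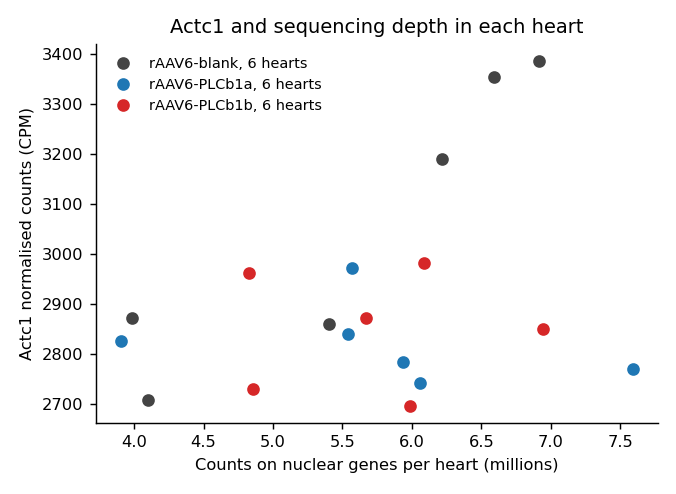
Actc1 (CPM) against the counts on nuclear genes in each of the 18 hearts, coloured by vector group, on a vertical axis that does not start at 0. Blank hearts 33, 34 and 36 lie at 3190 to 3385 CPM above all other hearts, and PLCb1a heart 7 and PLCb1b heart 4, the deepest of the PLC groups, lie at 2770 and 2849 CPM.

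Acta1 had the largest coefficient of variation among the 9 thin filament genes tested. It had 45.7 to 91.9 CPM (median 65.4) in blank hearts, 51.3 to 92.3 CPM (median 71.2) in PLCb1a hearts and 48.2 to 97.1 CPM (median 70.8) in PLCb1b hearts, a 2.12-fold range over the 18 hearts. Each group held high and low hearts, and the ranges nearly coincided. Its biological coefficient of variation was 0.196, at the 97.6th percentile of the genes tested, whereas those of the other 8 genes ran from 0.045 (Tpm2) to 0.094 (Tpm3). The log2 fold change was 0.11 (SE 0.21, edgeR adjusted p = 0.934) for PLCb1b and 0.12 (SE 0.21, edgeR adjusted p = 0.921) for PLCb1a. Single hearts moved these estimates, to 0.0098 without PLCb1b heart 10 and 0.23 without blank heart 30 for PLCb1b, and to 0.031 without PLCb1a heart 11 and 0.23 without blank heart 30 for PLCb1a. The interval for PLCb1b ran from -20.5% to 47.2%, so that a change of Acta1 of moderate size was not detectable here. In PLCb1a heart 21, in which the markers of fast skeletal muscle were highest, Acta1 was at 62.6 CPM, within the range of the other hearts. Among those markers Myh4, the myosin heavy chain of the fastest fibres, had 4.98 CPM in that heart and at most 0.126 CPM elsewhere.

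**Figure D4:**
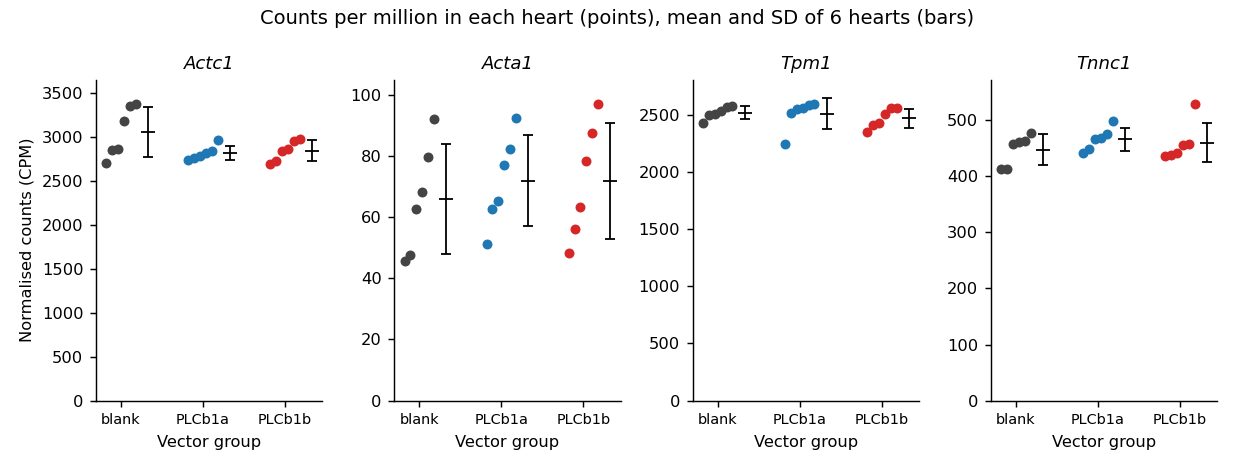
Normalised counts (CPM) of Actc1, Acta1, Tpm1 and Tnnc1 in each heart (points, sorted within a group), with the mean and SD of 6 hearts (bars), on axes from 0. The 3 highest blank hearts for Actc1, PLCb1a heart 7 for Tpm1 and PLCb1b heart 17 for Tnnc1 stand out, and Acta1 spreads over about the same range in every group.

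Ratios of a minor to a major gene were compared within hearts, where depth cancels. Acta1 was 1.41 to 3.06% of Actc1 in FPKM (median 2.03%) in blank hearts, 1.76 to 2.92% (median 2.39%) in PLCb1a hearts and 1.69 to 3.08% (median 2.26%) in PLCb1b hearts. The mean log2 ratio was 0.22 higher in PLCb1b than in blank hearts (exact permutation p = 0.333, adjusted p = 0.987) and 0.25 higher in PLCb1a than in blank hearts (exact permutation p = 0.242, adjusted p = 0.987). Without blank heart 33 these differences were 0.13 and 0.15, and without blank heart 30 they were 0.35 and 0.38. Tpm4 was 0.67 to 1.01% of Tpm1 over the 18 hearts, Tpm3 was 0.227 to 0.309% and Tpm2 was 0.0873 to 0.123%. These percentages hold for FPKM only, since counts per kilobase of exon placed all of these minor tropomyosins higher relative to Tpm1. Of 12 ratio comparisons (4 ratios, 3 pairs of groups, two-sided, adjusted together) 0 passed 0.05, and each adjusted p was 0.987. The smallest p that 6 against 6 hearts allow is 0.0022. The ratio of Tnni1 to Tnni3 was not tested because Tnni1 was listed at 0 in some hearts of each group.

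**Figure D5:**
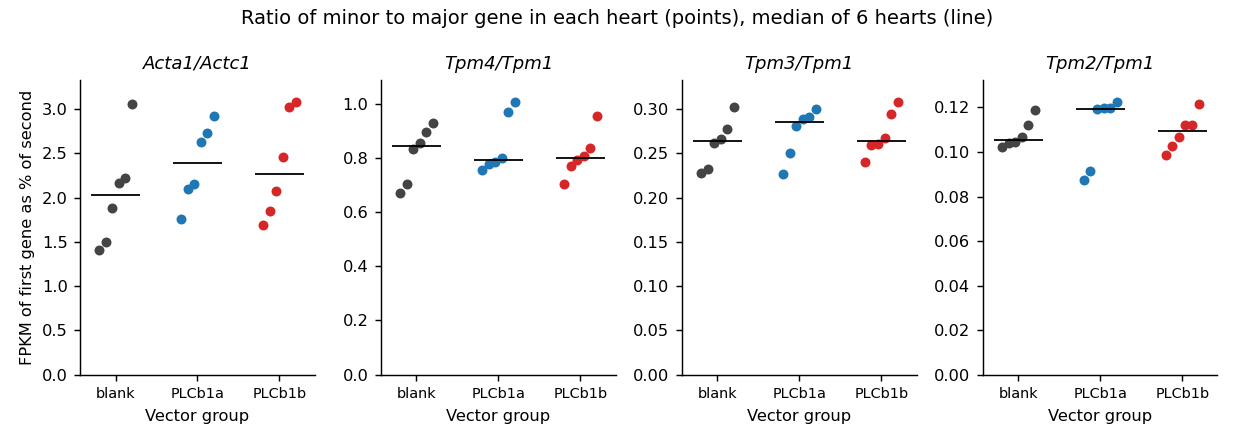
FPKM of the minor gene as a percentage of the major gene in each heart (points, sorted within a group), with the median of 6 hearts (lines), on axes from 0. The 3 groups overlap for each of the 4 ratios, with Acta1 at 1.41 to 3.08% of Actc1.

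The count and FPKM tables ordered the hearts more alike for some of these genes than for others. Both tables come from the same libraries, so that some relation was bound to be found and the p-values carry little weight. Pearson's r between CPM and FPKM over the 18 hearts was highest for Acta1 (r = 0.982, Spearman's rho = 0.971, permutation adjusted p = 2.5e-05 for r and 5e-05 for rho, r = 0.976 once the 2 hearts with the most extreme CPM were left out). It was lowest for Tpm1 (r = 0.489, rho = 0.507, permutation adjusted p = 0.0375 for r and 0.0342 for rho, r = 0.412 without 2 such hearts). The other 8 genes lay between, from 0.557 (Tnni3) to 0.939 (Tnni1). The 3 genes with the lowest r (Tpm1, Tnni3 and Tnnt2) were also those with the smallest coefficient of variation of CPM over the 18 hearts, at 3.74%, 4.31% and 4.91%, and Acta1 had the largest among the genes tested, at 23.7%.

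Across the 18 hearts the thin filament genes did not follow each other closely as a group. The correlations given here are descriptions over hearts of 3 groups and of unlike depth, and differences between the groups were not removed from them. Among the 36 pairs of the 9 genes, the highest Pearson's r of log2 CPM was that of Tnni3 and Tpm1 (r = 0.825, rho = 0.740), followed by Tnnt2 and Tnnc1 (r = 0.579, rho = 0.641). Actc1 and Acta1 had r = 0.128, and Actc1 had r from -0.259 (Tpm3) to 0.160 (Tpm2) with the other genes. The genes outside the thin filament most like Tnnt2, out of 12272 compared, were Pygm (muscle glycogen phosphorylase, r = 0.896), Fhod3 (a formin of the sarcomere, r = 0.793) and Hrc (a calcium-binding protein of the sarcoplasmic reticulum, r = 0.793). For Tnni3 they were Cox6a2 (the muscle form of a cytochrome oxidase subunit, r = 0.795), Erc1 (r = 0.794) and Myl2 (ventricular regulatory myosin light chain, r = 0.765). For Actc1 they were Fmo2 (r = 0.816), Hint2 (r = 0.783) and Tmem38a (r = 0.735), and for Acta1 they were Dcun1d3 (r = 0.799), Rcan2 (r = 0.799) and Clu (r = 0.793). Spearman's rho of these genes ran from 0.560 (Tmem38a with Actc1) to 0.872 (Pygm with Tnnt2), and was 0.591 for Fmo2. Each is among the highest of 12272 correlations over 18 hearts, and the r that unrelated genes would reach was not tested.

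Genes whose products cap, anchor or turn over actin filaments were compared next. Of 27 such genes, 0 were called in any of the 4 comparisons, in which at most 0.326% of all genes were called. Their median log2 fold change was -0.030 for PLCb1b and 0.0059 for PLCb1a. Nrap and Xirp2, scaffold proteins of growing myofibrils and intercalated discs, had 284 to 387 CPM and 703 to 1028 CPM, and Actn2, which anchors actin at the Z-disc, had 377 to 486 CPM. Lmod2, which lengthens thin filaments, had 148 to 195 CPM. At an unadjusted p under 0.05 Tmod1, which caps the pointed end of the thin filament, had a log2 fold change of -0.097 for PLCb1b (edgeR adjusted p = 0.539) and -0.090 for PLCb1a (edgeR adjusted p = 0.461). Tmod3 (-0.16) and Nrap (0.11) had such a p for PLCb1a (edgeR adjusted p = 0.317 and 0.553), as 8.58% of all genes did, against 7.41% for PLCb1b. The estimates of Tmod3 and Nrap for PLCb1b were -0.11 and 0.10, with edgeR unadjusted p = 0.0519 and 0.0583, just above 0.05.

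Of the other troponins, which belong to skeletal muscle, Tnnt1 had 2.05 to 4.24 CPM and was not called. Tnnt3, Tnni2 and Tnnc2 were too low to be tested. In PLCb1a heart 21 they reached 2.41, 1.90 and 1.33 CPM, and in the other hearts at most 0.322, 0.55 and 0.103 CPM. Of the other actins, Actb had 189 to 226 CPM and Acta2, the actin of smooth muscle, 23.0 to 45.3 CPM. Actg1 had 6.40 to 13.8 CPM, and 0 of the 3 were called in any comparison (at most 0.326% of all genes were), while Actg2 was too low to be tested.

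Of 8 factors that regulate actin genes, 0 were called. Srf had a log2 fold change of 0.13 for PLCb1b (edgeR adjusted p = 0.641), and its coactivator Mkl2 had 0.12 (edgeR adjusted p = 0.648). Both had an unadjusted p under 0.05, as 7.41% of all genes did. Neither had such a p for PLCb1a (edgeR unadjusted p = 0.243 for Srf and 0.544 for Mkl2). The same held for both PLC groups together (edgeR unadjusted p = 0.0596 and 0.122). For PLCb1a, Mef2d had an unadjusted p under 0.05 with 0.16 (edgeR adjusted p = 0.341), as 8.58% of all genes did. Myocd, Mef2a, Mef2c, Tead1 and Mkl1 had an unadjusted p above 0.05 in every comparison.

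Markers of other cell types were compared in the same fit. Lum, a proteoglycan of fibroblasts, was called higher in both PLC groups together against blank hearts, at 0.23 (SE 0.056, edgeR adjusted p = 0.0971). Its separate estimates were 0.23 for PLCb1b and 0.23 for PLCb1a (edgeR adjusted p = 0.235 and 0.256). The 5 fibroblast markers summed to 309 to 338 CPM in blank hearts, 301 to 355 CPM in PLCb1a hearts and 320 to 351 CPM in PLCb1b hearts. Of the tested markers of heart muscle, smooth muscle, atrium, endothelium, leukocytes and red cells, 0 were called, where at most 0.326% of all genes were. At an unadjusted p under 0.05 the endothelial marker Cdh5 had 0.14 for PLCb1b and 0.11 for PLCb1a (edgeR adjusted p = 0.417 and 0.506). The atrial marker Sln had such a p only between PLCb1b and PLCb1a hearts, at -0.89 (edgeR unadjusted p = 0.0185, edgeR adjusted p = 0.99994). The 4 endothelial markers summed to 231 to 283 CPM over all hearts, the 4 leukocyte markers in the table to 30.9 to 42.7 CPM and the 5 atrial markers to 24.2 to 61.0 CPM. Of the red cell genes, Hba-a1, Hba-a2, Hbb-b1 and Hbb-b2 had 0 counts in every heart and could not be tested on counts, whereas the FPKM table gave them means over 18 hearts of 175, 181, 82.4 and 93.9 FPKM. The remaining red cell gene, Alas2, which makes the first step of haem synthesis in red cell precursors, had 5.35 to 10.6 CPM (median 8.33) in blank hearts, 9.13 to 15.6 CPM (median 13.3) in PLCb1a hearts and 6.20 to 13.3 CPM (median 10.3) in PLCb1b hearts. Its log2 fold change was 0.63 for PLCb1a (unadjusted p = 0.00726, edgeR adjusted p = 0.364) and 0.22 for PLCb1b (edgeR adjusted p = 0.858).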

How the data were processed

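RNA of 18 hearts was depleted of ribosomal RNA and sequenced in strand-specific pairs. The authors aligned the reads to mm10 with TopHat and counted reads per gene by HTSeq's union mode. The deposited values are raw counts without normalization and, in a further table deposited by the authors, FPKM (the submitters' processing notes name Cufflinks 2.1 beside TopHat2 2.0.10). Groups were taken from the labels, and the numbers after the group names in the sample titles served as replicate numbers.

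The test was edgeR's robust quasi-likelihood F test (version 4.0.16, R 4.3.3) on TMM-scaled counts, in 1 model of the 3 groups without covariates. filterByExpr (at least 10 counts, at least 15 in total) kept 12281 genes. Adjustment was by Benjamini-Hochberg over these genes, with a call at an FDR below 0.1. Log2 CPM used a prior count of 2. Ratios were compared by exact two-sided permutation tests and relations across hearts with 100000 permutations. The 10 genes and all gene lists were chosen with earlier results of these data known. The text names the 10 genes, the called genes of each list, its genes with the highest CPM where they are described, and for likeness the 3 genes with the highest Pearson's r. List genes named for an unadjusted p under 0.05, and the remaining genes of short lists, were named after their values were seen.

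Alternatives were DESeq2 1.42.0, edgeR's exact test, upper-quartile, RLE and total-count scaling, no filter on low counts, only the groups compared, no mitochondrial genes, limma 3.58.1 on log2(FPKM + 0.1) or log2(FPKM + 1) of genes averaging 1 FPKM or more or of all genes, an FDR below 0.05, and leaving out every heart singly. A fit without robust estimation and a fit with depth as a covariate were chosen after seeing the data. Programs were tested on simulated data. Start regions came from RefSeq and transcripts from GENCODE. Mitochondrial genes, listed by identifier in the count table, were named from the deposited annotation (37 genes). Other steps used Python 3.11.15 (scipy 1.17.1, pandas 2.3.3, matplotlib 3.10.9, numpy 2.4.6). No heart was left out of the values reported.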

Additional observations from a re-analysis of the deposited data

Results flagged for a closer look

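Each thin filament gene was searched in each group for a single heart far from the other 5 (Dixon's test at 95%), on CPM and on FPKM. Of 60 groups tested, 4 held such a heart, and chance alone flags about 1 in 20 groups of normally distributed values. The tests were not independent, since CPM and FPKM come from the same libraries, and Tnni1 in blank heart 32 was flagged on both. The few counts of Tnni1 are not normally distributed. Tnnc1 was at 529 CPM in PLCb1b heart 17, against 436 to 458 CPM in the other 5 PLCb1b hearts. Without that heart the log2 fold change of Tnnc1 between PLCb1b and blank hearts went from 0.039 to -0.0045. Tpm1 was at 2240 CPM in PLCb1a heart 7, against 2512 to 2598 CPM in the other 5 PLCb1a hearts, and without it the log2 fold change between PLCb1a and blank hearts went from -0.0060 to 0.025. On FPKM neither heart was flagged for these genes, and neither gene was called with or without the heart. Tnni1 was at 0.306 CPM in blank heart 32, from 4 counts, against 0 to 0.0492 CPM in the other 5 blank hearts. In FPKM the same heart had 0.369 for Tnni1, against 0 to 0.067 in the others.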

How the results depend on the processing

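The count of thin filament genes called was 0 in each of the 4 comparisons under all alternatives, each heart left out included, and the count of ratios past 0.05 was 0 as well. The lowest adjusted p that any of these genes reached was 0.324 for PLCb1b against blank and 0.255 for PLCb1a against blank (both Actc1 without blank heart 26), 0.492 for PLCb1b against PLCb1a (Tpm4, total counts only) and 0.151 for both PLC groups against blank (Actc1 without blank heart 26). Among all genes, the count called ranged over the alternatives from 2 to 24 for PLCb1b against blank (12 in the fit reported), from 2 to 45 for PLCb1a against blank (17), from 0 to 2 for PLCb1b against PLCb1a (0) and from 4 to 58 for both against blank (40). With total counts only, 1 of the 13 genes called between PLCb1b and blank was higher in PLCb1b, against 9 of 12 in the fit reported.

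Some estimates close to 0 changed sign, and the cause was not tested. With total counts only, log2 fold changes were -0.048 for Actc1 and -0.048 for Tpm2 between PLCb1b and PLCb1a, -0.00059 for Tnnc1 and -0.0048 for Tnnt2 between PLCb1b and blank, and 0.019 for Tpm1 between PLCb1a and blank. Under that setting the median log2 fold change of all genes was -0.064, -0.040 and 0.024 in these 3 comparisons, in the same order. With limma on FPKM, Tpm2 was -0.018 (0.1 added, with or without the filter) and -0.015 (1 added) between PLCb1b and PLCb1a, and Tpm4 was -0.012 under these 3 settings for both PLC groups against blank. With counts per kilobase, the log2 ratio of Tpm2 to Tpm1 was -0.036 (PLCb1a against blank) and 0.044 (PLCb1b against PLCb1a, 0.00081 with 1 FPKM added), and that of Tpm4 to Tpm1 was 0.0065 (PLCb1b against blank).

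When single hearts were left out, estimates of uncalled genes moved by more than 1.5 times in places without a change of sign, as for Acta1, Tpm3 and the ratio of Acta1 to Actc1. The estimates that changed sign ranged as follows on the log2 scale. For PLCb1b against PLCb1a they ran from -0.11 to 0.089 for Acta1, -0.00025 to 0.029 for Actc1, -0.064 to 0.00033 for Tnnc1, -0.037 to 0.0035 for Tnni3, -0.013 to 0.054 for Tpm2, -0.11 to 0.016 for Tpm3, -0.11 to 0.063 for the ratio Acta1 to Actc1, -0.066 to 0.032 for the ratio Tpm2 to Tpm1 and -0.057 to 0.030 for the ratio Tpm3 to Tpm1. For PLCb1b against blank they ran from -0.0045 to 0.059 for Tnnc1, -0.058 to 0.021 for Tpm2, -0.075 to 0.010 for Tpm4, -0.021 to 0.040 for the ratio Tpm2 to Tpm1 and -0.058 to 0.036 for the ratio Tpm4 to Tpm1. For PLCb1a against blank they ran from -0.016 to 0.025 for Tpm1, -0.076 to 0.0041 for Tpm2 and -0.020 to 0.078 for the ratio Tpm2 to Tpm1. For both against blank they ran from -0.067 to 0.012 for Tpm2 and -0.037 to 0.048 for Tpm4.

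No paired analysis was possible because the groups share no replicate numbers and the labels name no pairing. Among the genes tested Acta1 had the widest intervals and the largest coefficient of variation, and Tnni1 was limited by its 22 counts. The reported values cover 6 hearts a group, and FPKM values carry no counting depth of their own.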
